A study of Mus musculus with 4 samples.

Results

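Monocytes and macrophages are phagocytes that arise from progenitors of the bone marrow, and 10 genes by which these cells are commonly recognised were followed in leukemia stem cells with and without Hif1a. The list holds Csf1r, Ccr2, Cx3cr1, Cd14, Fcgr3, Cd68, Ly86, F13a1, Lyz2 and Ly6c2. Of the 10 genes, 9 had a probe set annotated to that gene alone and were measured. Ly6c2 was not, because both of its probe sets are also annotated to Ly6c1. They are 9 of 19938 genes measured in the series.

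The cells came from a mouse transplantation model of chronic myeloid leukemia, in which the BCR-ABL fusion kinase is delivered to donor marrow by a retrovirus that also carries GFP. Samples fell into 2 groups of 2 arrays, and both carried BCR-ABL: Hif1a-/-, from marrow of Hif1a-/- donors, and WT, from marrow of C57BL/6 (B6) donors. In both, donors had received 5-fluorouracil, recipients were B6 mice, the stated age was 8 weeks, and cells that were GFP+, lineage-negative, c-Kit+ and Sca-1+ were sorted from recipient marrow at 14 days after transplantation. The labels give the strain of both groups as C57BL/6 (B6), and do not give the deleted part of Hif1a, the tissue in which it was deleted or the lineage antibodies used in the sort.

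The replicates are labelled biological, but separate animals are not stated, so p-values cover no more than the spread among these samples. Hif1a itself read 11.25 and 11.39 in Hif1a-/- cells, against 11.34 and 11.50 in WT cells (log2 RMA, replicates 1 and 2). The groups overlapped, with a difference of -0.09, so the level of Hif1a does not bear out the genotype labels. Where its probes lie relative to the deleted part is not stated. Kit, which encodes the c-Kit receptor used in the sort, read 10.95 and 10.61 in Hif1a-/- cells, against 10.32 and 11.07 in WT cells. The arrays' medians over all genes lay between 8.53 and 8.57, and the lowest correlation between 2 arrays was 0.9806, between the WT pair. Precision is limited by the number of arrays: the standard error of Hif1a-/- minus WT had a median of 0.14 (log2) over all genes. Among the 9 genes it ran from 0.13 for Cx3cr1 to 0.55 for Lyz2, and it was above that median in all except Cx3cr1.

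Monocytes develop under the growth factor CSF-1, which acts through the receptor kinase Csf1r, and leave the marrow through the chemokine receptor Ccr2. Patrolling monocytes carry Cx3cr1, the receptor of fractalkine. Cd14 and Ly86 serve the recognition of bacterial lipopolysaccharide, Fcgr3 binds antibody-coated targets, and Cd68 and Lyz2 belong to lysosomes and granules. F13a1 encodes the catalytic subunit of clotting factor XIII, which monocytes and macrophages make. Ly6c2 encodes a form of the Ly6C antigen that marks inflammatory monocytes.

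Hif1a-/- was set against WT in the only comparison of the design, which asks what loss of Hif1a does to gene expression in these leukemic cells. Ccr2 had the largest difference among the 9 genes, and F13a1 and Lyz2 the widest spread between arrays of one genotype. A lower mean in Hif1a-/- cells was found for 6 of the 9 genes and a higher mean for 3, beside 38.6% of all genes with a lower mean. The median difference of the 9 genes, Hif1a-/- minus WT, was -0.23 on the log2 scale, beside 0.03 over all genes. By limma, 0 of the 9 genes had an adjusted p under 0.05, and 0 of all genes did (0%). With a variance trend 1 gene of the 19938 passed, and 2 with robust fitting as well, and 334 had an unadjusted p under 0.05. Of the 9 genes, 1 had an unadjusted p under 0.05, lower in Hif1a-/- cells (Ccr2), beside 0.978% of all genes in that direction. None was higher at that limit, beside 0.697% of all genes. Since these arrays hold whole sorted samples, fewer cells of a type and less RNA per cell cannot be told apart in any of these values.

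**Figure D1:**
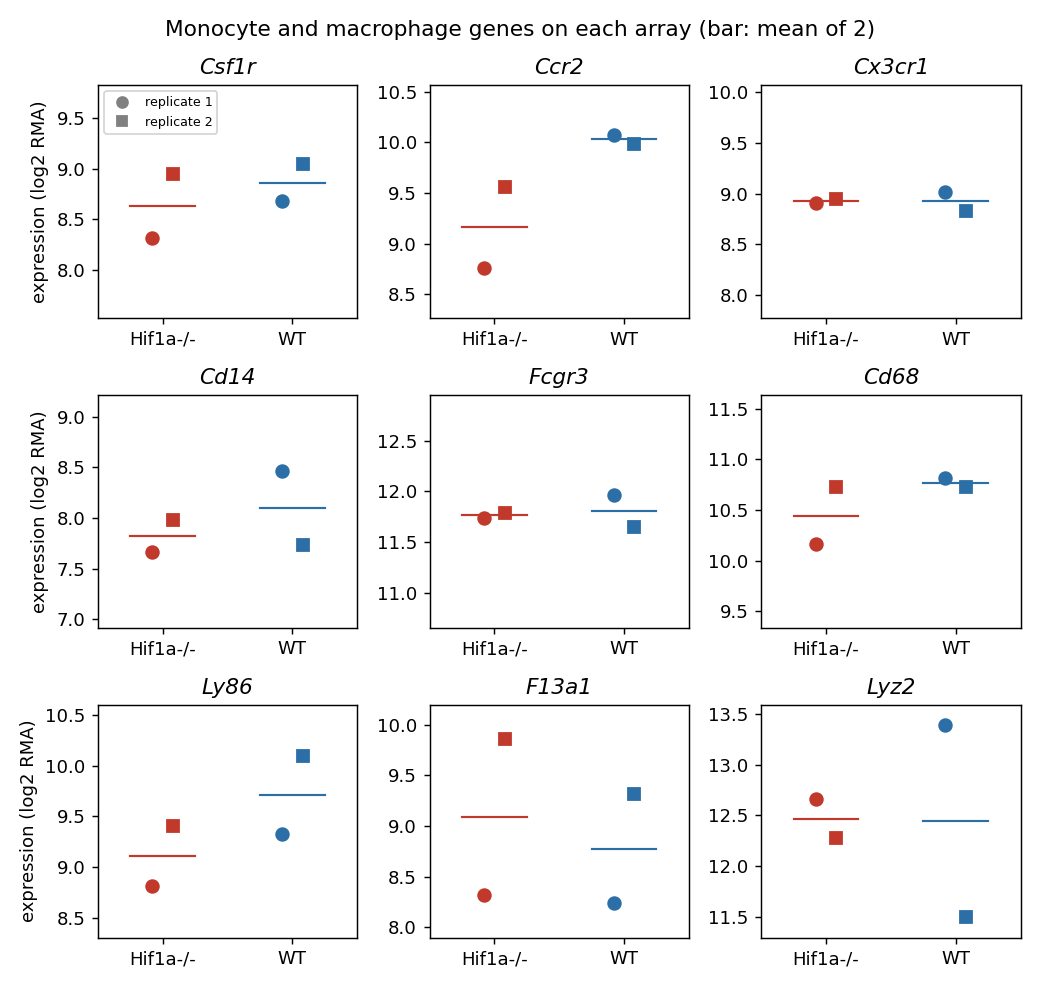
Expression (log2 RMA) of each of the 9 measured genes on each array, Hif1a-/- in red and WT in blue, with replicate 1 as circles, replicate 2 as squares and a bar at the mean of 2 arrays. Each panel spans the same number of log2 units. In Ccr2 the Hif1a-/- arrays are the lower pair, and in the other 8 genes the groups overlap.

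Ccr2 read 8.76 and 9.56 in Hif1a-/- cells, against 10.07 and 9.99 in WT cells. The groups did not overlap, with Hif1a-/- replicate 1 the lowest and the WT arrays close together. The difference was -0.87 ± 0.25 (SE) on the log2 scale, a 1.82-fold lower level, with a 95% interval from -1.48 to -0.26. Its unadjusted limma p was 0.0126 and its adjusted p over all genes 0.999. Without Hif1a-/- replicate 1 the difference was -0.47, and without Hif1a-/- replicate 2 it was -1.27. Ccr2 was the only one of the 9 genes with both Hif1a-/- arrays below both WT arrays, beside 9.05% of all genes, and 0 of the 9 had both above, beside 15.7%.

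Cx3cr1 read 8.91 and 8.95 in Hif1a-/- cells, against 9.02 and 8.83 in WT cells. The Hif1a-/- arrays lay between the WT arrays, and the difference was 0.0058, with a 95% interval from -0.31 to 0.32. This difference was -0.089 without WT replicate 2, 0.10 without WT replicate 1, -0.016 without Hif1a-/- replicate 2 and 0.027 without Hif1a-/- replicate 1. Of the monocyte chemokines and receptors beside them, 7 of 8 were measured, 5 with a mean below that of WT in Hif1a-/- cells and 2 with one above it, and 0 had an unadjusted p under 0.05. Their median difference was -0.13. Ccr1, a receptor of inflammatory chemokines, read 8.71 and 8.57 in Hif1a-/- cells, against 9.62 and 8.65 in WT cells, and its difference of -0.49 was -0.0065 without WT replicate 1 and -0.98 without WT replicate 2. The chemokine genes Ccl8 and Ccl7 differed by -0.17 and -0.16, which became -0.060 and -0.052 without WT replicate 1, and -0.27 for both without WT replicate 2.

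Csf1r read 8.31 and 8.95 in Hif1a-/- cells, against 8.68 and 9.04 in WT cells. In both genotypes replicate 2 was the higher array, and the groups overlapped. The difference was -0.23, with a 95% interval from -0.80 to 0.34, and it was 0.089 without Hif1a-/- replicate 1 and -0.55 without Hif1a-/- replicate 2. Without WT replicate 2 it was -0.049, and without WT replicate 1 it was -0.41. Among 10 genes of growth factors and their receptors, 7 had a mean below that of WT in Hif1a-/- cells and 3 a mean above it, with a median difference of -0.11 and 0 with an unadjusted p under 0.05. Csf3r, the receptor of the granulocyte factor G-CSF, differed by -0.24, and by -0.093 without WT replicate 1 and -0.38 without WT replicate 2. Csf2, the gene of GM-CSF, differed by -0.28 (-0.095 without Hif1a-/- replicate 1, -0.47 without replicate 2), and Il6ra, a receptor of interleukin 6, by -0.19 (-0.086 and -0.28 without the same arrays).

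Ly86 encodes MD-1, a small secreted protein that pairs with the receptor encoded by Cd180. Ly86 read 8.81 and 9.41 in Hif1a-/- cells, against 9.33 and 10.10 in WT cells. The highest array was WT replicate 2 and the lowest Hif1a-/- replicate 1, while Hif1a-/- replicate 2 and WT replicate 1 lay close together, so that the groups overlapped. The difference was -0.61 ± 0.30 (SE), a 1.52-fold lower level, with a 95% interval from -1.32 to 0.11. Its unadjusted limma p was 0.0831. Without WT replicate 2 it was -0.22, and without WT replicate 1 it was -0.99.

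Cd180 stood on the arrays in the same order as Ly86. It read 9.005 and 9.42 in Hif1a-/- cells, against 9.33 and 10.15 in WT cells. Relative to its own mean, Cd180 lay at -0.47 and -0.05 on the Hif1a-/- arrays and at -0.15 and 0.68 on the WT arrays, where Ly86 lay at -0.60 and -0.0043 and at -0.08 and 0.69. Cd180 differed by -0.52 between genotypes (unadjusted limma p 0.111), or by -0.11 without WT replicate 2 and -0.94 without WT replicate 1.

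Cd14, the lipopolysaccharide co-receptor, read 7.67 and 7.98 in Hif1a-/- cells, against 8.47 and 7.74 in WT cells. WT replicate 1 stood above the other three arrays, and the groups overlapped. The difference was -0.28, with a 95% interval from -0.88 to 0.32, and it was 0.085 without WT replicate 1 and -0.64 without WT replicate 2. All 7 genes of the lipopolysaccharide list were measured, 5 with a mean below that of WT in Hif1a-/- cells and 2 with one above it, and 0 had an unadjusted p under 0.05. Tlr4, the signalling receptor for lipopolysaccharide, differed by -0.28 (-0.13 without WT replicate 1, -0.43 without WT replicate 2) with groups that did not overlap. Its adaptor gene Tirap differed by -0.10 (-0.025 and -0.17 without the same arrays).

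Fcgr3, a low-affinity receptor for IgG, read 11.74 and 11.78 in Hif1a-/- cells, against 11.96 and 11.65 in WT cells. The Hif1a-/- arrays lay between the WT arrays, and the difference of -0.04 had a 95% interval from -0.40 to 0.32. It was 0.12 without WT replicate 1 and -0.20 without WT replicate 2. Among the 5 genes of Fc receptors and their signalling, 4 had a mean below that of WT in Hif1a-/- cells and 1 a mean above it, and 0 had an unadjusted p under 0.05. Fcgr4 differed by -0.36 (0.026 without WT replicate 1, -0.74 without WT replicate 2), Fcgr1 by 0.15 (0.52 and -0.23 without the same arrays) and the inhibitory receptor gene Fcgr2b by -0.02. Fcer1g, the common signalling chain, differed by -0.13 (0.087 without WT replicate 1, -0.34 without WT replicate 2), and the kinase gene Syk by -0.28 (-0.081 and -0.48 without the same arrays). Fcgr3 and its neighbours are related in sequence, and the annotation does not tell how far their probes share targets.

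Lyz2, which encodes the lysozyme of macrophages and neutrophils, read 12.66 and 12.27 in Hif1a-/- cells, against 13.39 and 11.50 in WT cells. Both Hif1a-/- arrays lay between the WT arrays, and the WT arrays stood 3.72-fold apart. Between genotypes the difference was 0.02 ± 0.55 (SE), with a 95% interval from -1.30 to 1.35. Without WT replicate 1 it was 0.97, and without WT replicate 2 it was -0.93. In these fits the remaining WT array is assumed to vary like the Hif1a-/- pair.

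The order of the arrays in Lyz2, with WT replicate 1 highest and WT replicate 2 lowest, was also that of 12 of 12 mature neutrophil genes, beside 14.8% of all genes. The summed linear signal of those 12 neutrophil genes was 70062 and 62326 on the Hif1a-/- arrays, against 113372 and 41019 on the WT arrays. RMA values have no zero, so none of these markers was at 0, and the part of neutrophil RNA in the Lyz2 values was not tested. Lyz1, the paralog of Lyz2, read 9.24 and 9.18 in Hif1a-/- cells, against 10.23 and 8.93 in WT cells. WT replicate 1 was again the higher WT array, as in 54.5% of all genes. The difference of Lyz1 was -0.37, or 0.28 without WT replicate 1 and -1.02 without WT replicate 2. The pair is close in sequence and probes may share targets, so each value is uncertain as to its gene.

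Cd68, a glycoprotein of macrophage lysosomes, read 10.16 and 10.73 in Hif1a-/- cells, against 10.81 and 10.72 in WT cells. Hif1a-/- replicate 1 stood apart below the other three arrays. The difference was -0.32, with a 95% interval from -0.80 to 0.16, and it was -0.039 without Hif1a-/- replicate 1 and -0.60 without Hif1a-/- replicate 2. Of 18 genes of lysosomes and the phagocyte oxidase, 16 were measured, 12 with a mean below that of WT in Hif1a-/- cells and 4 with one above it, and 0 had an unadjusted p under 0.05. Psap, the precursor of lysosomal saposins, differed by -0.30, the protease gene Ctsl by 0.35 and the protease gene Ctss by -0.27. Ctsl gave 0.17 without WT replicate 1 and 0.53 without WT replicate 2, and Ctss 0.087 without Hif1a-/- replicate 1 and -0.63 without Hif1a-/- replicate 2.

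F13a1 read 8.32 and 9.86 in Hif1a-/- cells, against 8.24 and 9.31 in WT cells. Replicate 2 was far above replicate 1 in both genotypes, by 1.55 in Hif1a-/- and by 1.08 in WT cells on the log2 scale. Between genotypes the difference was 0.31 ± 0.54 (SE), with a 95% interval from -0.98 to 1.61. It was -0.46 without Hif1a-/- replicate 2 and 1.09 without Hif1a-/- replicate 1, and -0.22 without WT replicate 1 and 0.85 without WT replicate 2. Among further monocyte genes, and picked after their values were seen, Ms4a6c showed the same split of replicates. It read 8.97 and 10.18 in Hif1a-/- cells, against 8.99 and 10.34 in WT cells. Most of that list did not share the split: WT replicate 1 lay above WT replicate 2 in 15 of its 22 measured genes.

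**Figure D2:**
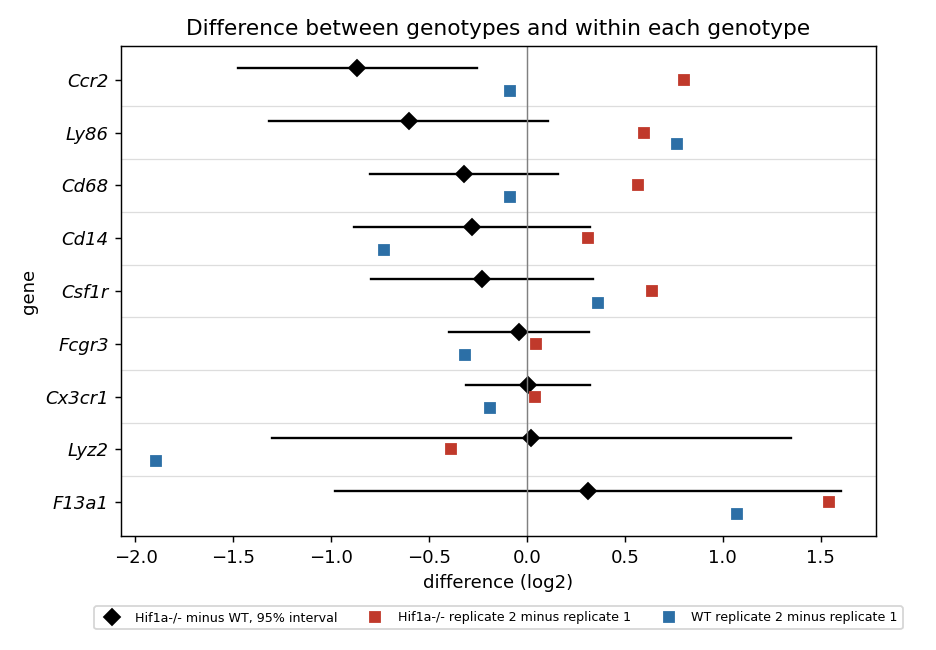
Differences on the log2 scale for each gene: Hif1a-/- minus WT with its 95% limma interval (black), and replicate 2 minus replicate 1 within Hif1a-/- (red) and within WT (blue). The interval excludes 0 only for Ccr2, and the largest gap within a genotype is that of Lyz2 between the WT arrays, at -1.90.

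Gaps between the arrays of one genotype were of the size of the differences between genotypes. The measures are unlike: a gap between 2 single arrays is expected to vary more than a difference between means of 2 arrays. The gap between the WT arrays was larger than the difference between genotypes in 7 of the 9 genes, beside 75.5% of all genes. The gap between the Hif1a-/- arrays was larger in 7 of the 9, beside 57% of all genes. The median size of the gap was 0.57 between the Hif1a-/- arrays and 0.36 between the WT arrays, beside 0.11 and 0.19 over all genes, while the median size of the difference between genotypes was 0.28, beside 0.086. Hif1a-/- replicate 2 lay above Hif1a-/- replicate 1 in all 9 genes except Lyz2. Over all genes, replicate 1 was the higher of this pair in 49.6%.

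The genes did not share one order of arrays. In 5 of them (Csf1r, Ccr2, Cd14, Cd68 and Ly86) the lowest array was Hif1a-/- replicate 1, as in 15.2% of all genes. In 3 (Cx3cr1, Fcgr3 and Lyz2) it was WT replicate 2, as in 37.7% of all genes, and in F13a1 it was WT replicate 1. The highest array was WT replicate 1 in 6 of the 9 genes, as in 26.6% of all genes. Centred on its own mean, each gene contributed to an average of the 9 genes of -0.34 and 0.12 on the Hif1a-/- arrays, against 0.17 and 0.05 on the WT arrays.

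The 6 measured mast cell genes were also lowest on Hif1a-/- replicate 1, in 6 of 6. Their summed linear signal was 12792 and 17887 on the Hif1a-/- arrays, against 19980 and 19326 on the WT arrays. Some of these margins were small. Hif1a-/- replicate 1 and WT replicate 2 read 11.266 and 11.269 for Ms4a2, and 10.926 and 10.933 for Fcer1a. Mcpt4 was low on both Hif1a-/- arrays, at 8.21 and 8.26, against 9.52 and 9.56 in WT cells. Early granule genes, markers of granulocyte progenitors, summed to 45843 and 46125 on the Hif1a-/- arrays, against 34359 and 47999 on the WT arrays. None of their 5 genes was lowest on Hif1a-/- replicate 1. The part of the cell types in the order of the arrays was not tested.

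**Figure D3:**
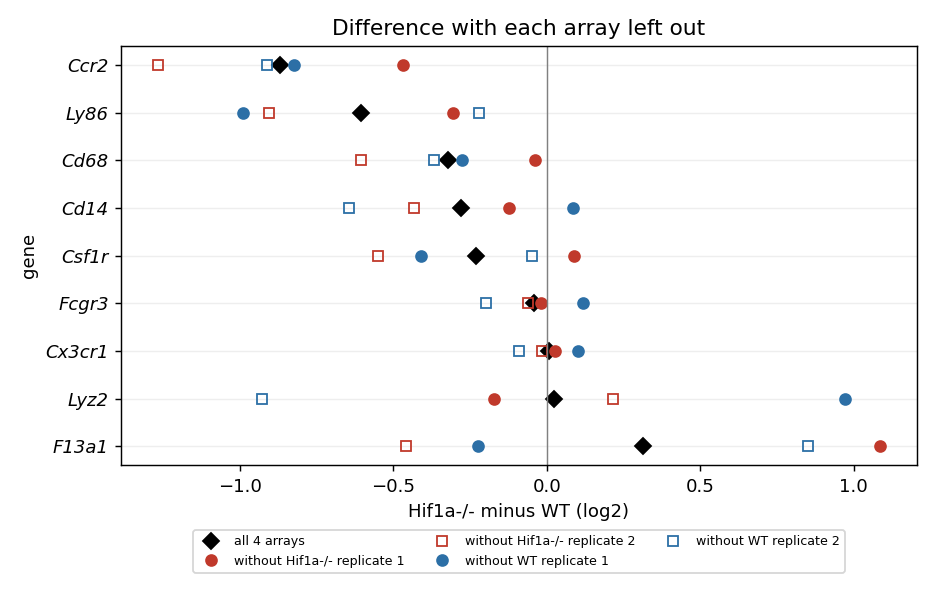
Hif1a-/- minus WT difference (log2) of each gene with all 4 arrays (black diamonds) and with Hif1a-/- replicate 1 (red circles), Hif1a-/- replicate 2 (open red squares), WT replicate 1 (blue circles) or WT replicate 2 (open blue squares) left out. Ccr2, Ly86 and Cd68 stay below 0 in all 5 fits, and the other 6 genes have values on both sides of 0.

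The genes whose profile over the 4 arrays came nearest to the mean of the 9 genes were Ace, Treml4, Mid1, Pde1c and Ptms, by Euclidean distance of centred log2 values among 17060 candidates. The distances ran from 0.049 for Ace to 0.082 for Ptms. Ace encodes the angiotensin-converting enzyme, also found on patrolling monocytes, and is one of the further monocyte genes. It read 7.94 and 8.43 in Hif1a-/- cells, against 8.47 and 8.40 in WT cells. Treml4, a TREM-like receptor of myeloid cells, read 8.54 and 8.96 in Hif1a-/- cells, against 9.09 and 8.92 in WT cells. Both were lowest on Hif1a-/- replicate 1. With 4 arrays such a likeness is only a description.

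The upstream sequence of 4 of the genes is given because Ccr2 and Ly86 had the largest differences between genotypes, F13a1 the widest gap between the Hif1a-/- arrays, and Fcgr3 the only hypoxia response core among the windows searched. The sequences are the 250 bases before a RefSeq transcript start (GRCm38.p6), 5′ to 3′ on the gene's strand. They lie at chr9:124101933-124102182 (plus strand) for Ccr2, chr13:37345095-37345344 (plus) for Ly86, chr13:37050245-37050494 (minus) for F13a1 and chr1:171059404-171059653 (minus) for Fcgr3. Capitals mark matches, on either strand, to GAGGAA, a core bound by the myeloid factor PU.1, or to the hypoxia response cores ACGTG and GCGTG.
Ccr2: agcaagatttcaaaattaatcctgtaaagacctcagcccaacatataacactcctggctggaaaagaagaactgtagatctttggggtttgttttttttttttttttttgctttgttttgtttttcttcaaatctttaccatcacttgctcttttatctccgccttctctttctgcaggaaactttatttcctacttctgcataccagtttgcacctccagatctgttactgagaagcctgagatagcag
Ly86: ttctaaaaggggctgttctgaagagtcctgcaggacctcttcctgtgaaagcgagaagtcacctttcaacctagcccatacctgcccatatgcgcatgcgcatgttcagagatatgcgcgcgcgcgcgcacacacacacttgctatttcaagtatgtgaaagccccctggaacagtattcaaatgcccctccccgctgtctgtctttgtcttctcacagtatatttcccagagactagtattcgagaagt
F13a1: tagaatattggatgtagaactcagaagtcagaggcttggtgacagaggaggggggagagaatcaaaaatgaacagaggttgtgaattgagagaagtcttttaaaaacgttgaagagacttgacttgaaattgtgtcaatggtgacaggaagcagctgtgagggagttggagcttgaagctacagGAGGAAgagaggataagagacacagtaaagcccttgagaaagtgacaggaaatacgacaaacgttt
Fcgr3: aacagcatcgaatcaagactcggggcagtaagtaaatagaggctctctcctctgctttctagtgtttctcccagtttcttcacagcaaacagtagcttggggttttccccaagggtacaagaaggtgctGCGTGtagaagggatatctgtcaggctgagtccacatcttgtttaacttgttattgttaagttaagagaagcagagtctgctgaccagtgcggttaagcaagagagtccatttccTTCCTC
None of these motifs was in the windows of Ccr2 and Ly86. GAGGAA stood at 66 bases before the start in F13a1 and, on the opposite strand, at 6 bases before it in Fcgr3, and it was also in the window of Cd68. The second start of F13a1 lacked it, and 23.3% of all 32841 promoter windows of this length held it. GCGTG stood at 121 bases before the start in Fcgr3, and 38.6% of all windows held ACGTG or GCGTG. The longer PU.1 sequence AGAGGAAGT, which contains GAGGAA, was in none of the windows searched (Ccr2, Cx3cr1, Fcgr3, Cd68, Ly86, F13a1, Lyz2 and Cd180), and 0.798% of all windows held it. A match in these letters shows no binding, and its lack in this window says nothing of the factors.

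Of the transcription factors that direct the monocyte lineage, 14 of 15 were measured, 10 with a mean below that of WT in Hif1a-/- cells and 4 with one above it, and a median difference of -0.06. Their unadjusted limma p was under 0.05 in 2 genes, both lower, beside 0.978% of all genes in that direction, and 0 passed when adjusted over all genes. Irf8, which steers progenitors to monocytes and dendritic cells, read 9.49 and 9.29 in Hif1a-/- cells, against 9.90 and 10.07 in WT cells. Its difference was -0.59 ± 0.14 (SE), with an unadjusted p of 0.00460. Irf5, a factor of inflammatory macrophages, read 9.43 and 9.54 in Hif1a-/- cells, against 10.15 and 9.84 in WT cells. Its difference was -0.51 ± 0.15 (SE), with an unadjusted p of 0.0131. The Hif1a-/- arrays were the lower pair in each, and Cebpa, a regulator of granulocyte and monocyte progenitors, differed by -0.31 with groups that did not overlap (-0.19 without Hif1a-/- replicate 1, -0.42 without Hif1a-/- replicate 2). Spi1, which encodes PU.1, and Klf4, a factor of monocyte differentiation, were picked after their values were seen. They differed by -0.22 (-0.019 without WT replicate 1, -0.41 without WT replicate 2) and -0.03 (0.16 without Hif1a-/- replicate 1, -0.22 without Hif1a-/- replicate 2), with groups that overlapped.

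Among further monocyte genes, 22 of 23 were measured, 19 with a mean below that of WT in Hif1a-/- cells and 3 with one above it. The median difference was -0.21, beside 0.03 over all genes, and 13 of the 22 were lowest on Hif1a-/- replicate 1, where 15.2% of all genes were. By limma 2 had an unadjusted p under 0.05, both lower, beside 0.978% of all genes, and 0 passed when adjusted over all genes. Mpeg1, a pore-forming protein of macrophages, read 9.72 and 9.80 in Hif1a-/- cells, against 10.50 and 10.10 in WT cells. Its difference was -0.54 ± 0.16 (SE), with an unadjusted p of 0.0148. Without WT replicate 1 it was -0.34, and without WT replicate 2 it was -0.74. Pld4, an exonuclease of myeloid and plasmacytoid cells, differed by -0.35 (-0.24 without Hif1a-/- replicate 1, -0.46 without Hif1a-/- replicate 2) with an unadjusted p of 0.0437. Ms4a6b differed by -0.36 (-0.098 and -0.63 without the same arrays).

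All 23 further macrophage genes were measured, 12 with a mean below that of WT in Hif1a-/- cells and 11 with one above it, and a median difference of -0.01. Cd36, a scavenger and lipid receptor, read 7.49 and 7.51 in Hif1a-/- cells, against 8.19 and 8.11 in WT cells. The arrays of each genotype lay close together and the groups were apart, with a difference of -0.65 ± 0.12 (SE), a 1.57-fold lower level. Its unadjusted limma p was 0.00136 and its adjusted p 0.999, and the difference ran from -0.69 to -0.61 with any array left out. Hmox1, which degrades heme, differed by -0.38 (-0.030 without WT replicate 1, -0.72 without WT replicate 2), and Aif1 by -0.24 (-0.14 without Hif1a-/- replicate 1, -0.34 without Hif1a-/- replicate 2). Cd36 was the only one of the 23 with an unadjusted p under 0.05, and it was lower, beside 0.978% of all genes.

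Several of these genes, Irf8, Mpeg1 and Pld4 among them, are also expressed by dendritic cells. Of 9 conventional dendritic cell genes, 7 had a mean below that of WT in Hif1a-/- cells and 2 a mean above it, beside 38.6% of all genes below it. The 2 were Zbtb46, higher by 0.23 with both Hif1a-/- arrays above both WT arrays, and Cd209a, higher by 0.12 with groups that overlapped. In 6 of the 9 both Hif1a-/- arrays were under both WT arrays, beside 9.05% of all genes, and the same number had an unadjusted limma p under 0.05, lower in Hif1a-/- cells, beside 0.978%. After adjustment over all genes 0 of them passed. Their summed linear signal was 11429 and 12057 on the Hif1a-/- arrays, against 18218 and 17850 on the WT arrays. H2-Aa, H2-Ab1 and Cd74 weigh most in this sum, as the brightest of the 9 genes, with WT means of 12.25, 12.11 and 12.43 (log2). The part of dendritic cells in the differences of Ccr2, Irf8, Mpeg1 and Pld4 was not tested.

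**Figure D4:**
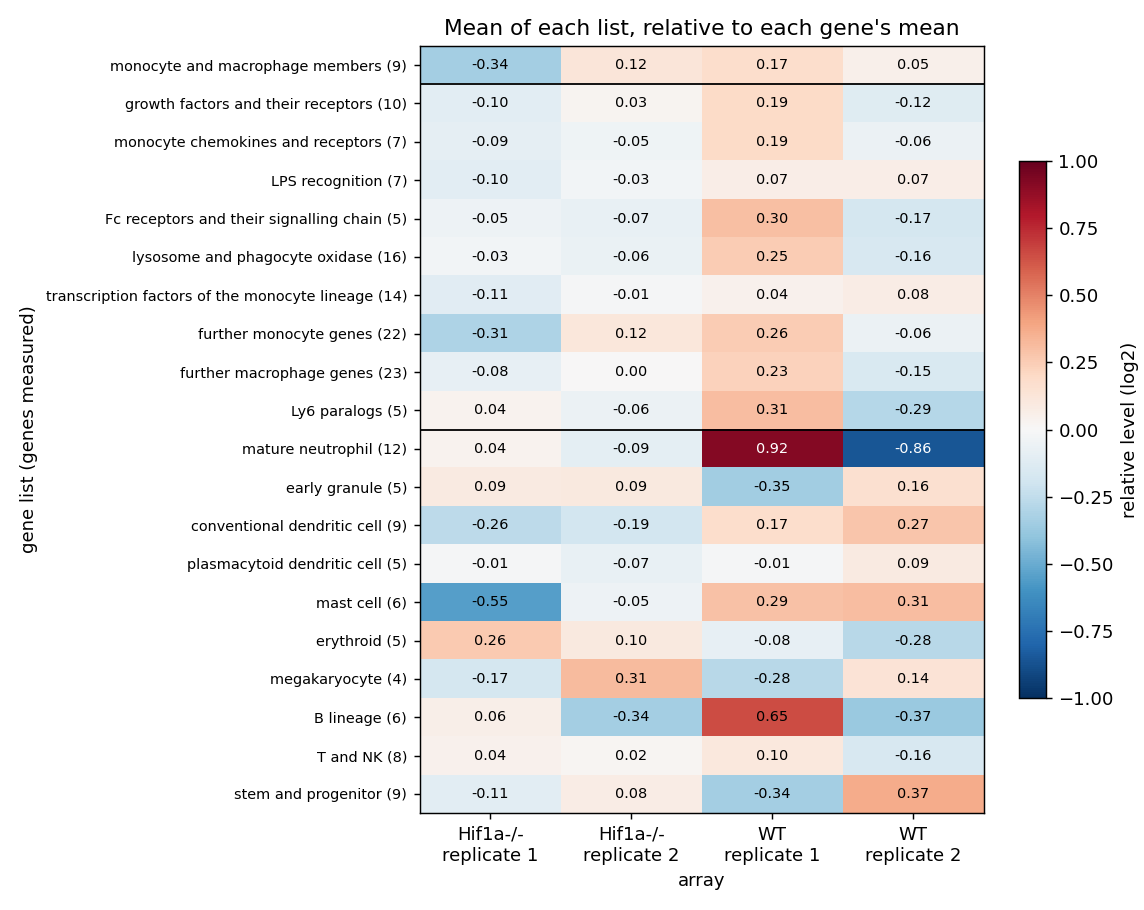
Mean of each gene list on each array, after each gene was centred on its mean (log2), with the number of genes measured in brackets. The 9 monocyte and macrophage genes (top row) and the further monocyte genes are lowest on Hif1a-/- replicate 1, at -0.34 and -0.31, and the mature neutrophil genes run from 0.92 to -0.86 between WT replicates 1 and 2.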

How the data were processed

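The table deposited by the authors holds log2 values of 35556 probe sets on each array. They were made, per the submitters' processing notes, with Affymetrix Expression Console 1.1 and RMA, which corrects background, normalizes by quantiles and summarises probes; other settings are not stated there. RMA draws differences of dim genes together and scales out changes in total RNA.

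Samples were grouped by genotype from their titles. By the platform annotation 21789 probe sets carried 1 gene symbol, 1621 several and 12146 none. Each gene took its highest-mean probe set with 1 symbol, which left 19938 genes, with no filter on low values. Genotype was the only term of a limma 3.58.1 model (lmFit and eBayes, R 4.3.3) of 4 arrays, with Benjamini-Hochberg adjustment over all genes at a threshold of 0.05. The fit had 4.46 prior degrees of freedom beside 2 residual ones. An exact two-sided permutation test of 2 against 2 arrays cannot go under 0.333. The procedure was tested on simulated data.

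The members and the 9 related lists, with 109 of 116 entries measured, were chosen with earlier results of these data known. Besides the members, Hif1a, Kit and the paralogs Lyz1, Fcgr1, Fcgr2b and Fcgr4, the genes named were the 3 with the smallest p in each related list and the 5 nearest profiles. Ms4a6c, Spi1, Klf4, Itgam and Cybb were named outside that rule, after their values were seen. So were the dendritic cell genes Zbtb46, Cd209a, H2-Aa, H2-Ab1 and Cd74, and the mast cell genes Ms4a2, Fcer1a and Mcpt4. Among 5 Ly6 paralogs the 3 with the smallest p were Ly6i, Ly6k and Ly6d. They differed by -0.21, 0.19 (0.036 without WT replicate 2, 0.34 without WT replicate 1) and 0.16 (-0.12 without Hif1a-/- replicate 1, 0.44 without Hif1a-/- replicate 2). Ly6a and Ly6c1, also to be named, had no probe set of their own and were not analysed here. Upstream sequences came from the RefSeq promoter table (GRCm38.p6); proteins, and genes on chromosome 18, were left out of the sequence work. The 17 alternatives covered filters, normalization, a floor, variance priors, the choice of probe set, array weights, the replicate block, each array left out and other thresholds. The crossed replicate block was added after the data had been seen.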

Additional observations from a re-analysis of the deposited data

How the results depend on the processing

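With 0 genes and 0 of the 9 members called by limma on all 4 arrays, the settings moved these counts as follows. Over all genes there were 1 with a variance trend, 2 with a trend and robust fitting, 334 at an unadjusted p under 0.05, 47 with the replicate block, and from 2 to 1442 with an array left out. Of the members, 1 was called with the replicate block (Ccr2, adjusted p 0.0134), 1 lay under an unadjusted p of 0.05 (Ccr2), and from 0 to 3 were called with an array left out. Those were Ccr2, Ly86 and Lyz2 without WT replicate 1, and Ccr2, Cd14 and Lyz2 without WT replicate 2. The differences between replicates 2 and 1 in the 2 genotypes had a Pearson correlation of -0.0072 and a Spearman correlation of -0.16 over genes, so the numbers were not taken to pair the samples. Crossing them gave 0 genes and 0 members called.

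The median difference of the members was -0.23 and ran from -0.46 to -0.039 with an array left out. Ccr2, Cd68 and Ly86 kept their sign under every alternative run, and the other 6 members turned under at least 1. With centred array medians Cx3cr1 gave -0.020 and Lyz2 -0.0035, and with a second quantile normalization Cx3cr1 gave -0.012. With an array left out the ranges were -0.64 to 0.085 for Cd14, -0.55 to 0.089 for Csf1r, -0.089 to 0.10 for Cx3cr1, -0.46 to 1.09 for F13a1, -0.20 to 0.12 for Fcgr3 and -0.93 to 0.97 for Lyz2, and among those that kept their sign -1.27 to -0.47 for Ccr2, -0.60 to -0.039 for Cd68 and -0.99 to -0.22 for Ly86. The cause was not tested.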

Other observations

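The probe sets annotated to both Ly6c2 and Ly6c1 cannot be credited to either gene. One read 13.05 and 13.12 in Hif1a-/- cells, against 13.51 and 12.83 in WT cells, and the other 13.11 and 13.09 in Hif1a-/- cells, against 13.42 and 12.91 in WT cells. The Hif1a-/- arrays lay between the WT arrays in both, as in Lyz2.

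Itgam, which encodes the CD11b integrin of monocytes and neutrophils, and Cybb, the catalytic subunit of the phagocyte oxidase, were picked after their values were seen. Itgam read 11.00 and 10.71 in Hif1a-/- cells, against 11.88 and 10.27 in WT cells. Cybb read 12.54 and 12.06 in Hif1a-/- cells, against 13.30 and 11.47 in WT cells. Both had the order of WT arrays seen in Lyz2, with WT replicate 1 the higher, as in 54.5% of all genes.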
